A study of Bos taurus with 2 samples.

Results

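GATA3, TFAP2A, TFAP2B and ISL1 are 4 of the 17846 genes measured in single cells of day 25 bovine embryos. They were taken by name, as transcription factors known from ectoderm and its derivatives, and selected on their UMI counts in these same cells, which were known from an earlier analysis, so their own levels are given below as descriptions without a test. GATA3 is a zinc finger factor best known in cattle embryos from the trophoblast, the outer layer that builds the placenta; in mouse it also acts in sympathetic neurons, spinal interneurons, the inner ear and skin. TFAP2A and TFAP2B are AP-2 factors of surface ectoderm and neural crest, and in mouse also of inhibitory neurons of the dorsal hindbrain and spinal cord. ISL1 is a LIM homeodomain factor of motor, sensory and sympathetic neurons and of heart progenitors in mouse. GATA3 RNA in a cell is therefore no sign of trophoblast by itself, and the question here is in which cells it lay.

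The embryos were chimeras, flushed on day 25, of a bovine host and incorporated bovine embryonic stem cells (bESCs), and both samples carry the same label and form 1 group with 2 replicates. Tissue was digested with papain and DNase, the cells were sorted, and RNA was counted with the 10x Genomics 3′ v3.1 droplet kit; the labels do not name the gate of the sort. Whether the samples are separate embryos is not stated either. Every p-value below thus measures only how the difference between cells with and without an RNA varied between these samples. That spread is largely pooled over genes and may be technical. No groups of samples were compared; cells that hold a given RNA were set against cells of the same suspension without it.

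Of 4437 deposited cells, 1939 and 2420 cells of replicates 1 and 2 had 500 or more detected genes and were kept, with a median of 4987 and 5704 unique molecular identifiers (UMIs, tags that count each captured RNA once). Levels are UMIs of a gene per 1000000 UMIs (CPM) of a summed group of cells, and 2 values joined by "and" are replicates 1 and 2. Each cell was placed in the first gate it met: 20% or more of its UMIs in globin genes; 10 or more UMIs of pregnancy-associated glycoprotein or prolactin-related protein genes (PAG or PRP, products of bovine trophoblast); 2 or more UMIs of the collagen VI genes COL6A1, COL6A2 and COL6A3; 2 or more UMIs of the neuron markers DCX, STMN2, ELAVL3 and ELAVL4; or 1 or more UMI of SOX2, a factor of neural progenitors. The remaining cells are called outside the gates. The neuron gate held 839 and 992 cells, the SOX2 gate 550 and 759, the cells outside the gates 475 and 540, the collagen VI gate 53 and 97, the PAG or PRP gate 13 and 13 and the globin gate 9 and 19. Some gates differed in genes they did not use: COL1A1 stood at 8078 and 8699 CPM in the collagen VI gate and 17.1 and 29.1 CPM in the neuron gate. HES5, a Notch target of progenitors, stood at 116 and 128 CPM in the SOX2 gate and 0 and 0 CPM in the PAG or PRP gate. The neuron and SOX2 gates were less apart. In the neuron gate HES5 had 93.3 and 97.7 CPM. PAX6, a factor of neural progenitors, had 147 and 131 CPM there and 135 and 98.9 CPM in the SOX2 gate. SOX2 was detected in 57.1% of neuron-gate cells.

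GATA3 was the most abundant of the 4 genes, and nearly all of its RNA lay in cells without trophoblast products. It had 9387 UMIs in 2526 cells, which is 367 and 344 CPM over all kept cells, and it ranked 366 among all genes by summed UMIs. The neuron gate held 64.5 ± 1.31% of all GATA3 UMIs (SD, n = 2), the SOX2 gate 23.2 ± 3.27%, the cells outside the gates 10.3 ± 1.60%, the collagen VI gate 1.11 ± 0.0859% and the PAG or PRP gate 0.820 ± 0.464%. The order of the gates sets this split: with SOX2 placed first the neuron gate took 25.4% and the SOX2 gate 62.7%, and without cells that met more than 1 gate they took 42.1% and 38.5%. Of the 2526 cells with GATA3, 15 met the PAG or PRP gate, which is 0.594% (exact binomial 95% interval 0.333 to 0.978%, counting error only), and 130 cells (5.15%) had any PAG or PRP UMI. The PAG or PRP gate was itself small, with 26 of the 4359 kept cells (0.596%) and 292563 of their 26565070 UMIs. Its small share of GATA3 therefore does not show that GATA3 was depleted there. The neuron gate held 42.0% of all kept cells, beside its 64.5% of GATA3 UMIs.

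By level, GATA3 stood highest in the neuron gate, at 472 and 473 CPM. The SOX2 gate had 281 and 279 CPM, the cells outside the gates 297 and 268 CPM and the PAG or PRP gate 296 and 194 CPM, the last from 47 and 26 UMIs. The ranges of these 3 groups overlapped one another, so no order among them can be read from 2 replicates, while both neuron values lay above all of them. The collagen VI gate stood at 89.4 and 63.5 CPM and the globin gate, whose cells are erythroid by the globin genes that define it, at 13.2 and 9.31 CPM, from 3 and 5 UMIs. The 2 replicates ranked the gates alike at both ends, with the neuron gate first, the collagen VI gate second to last and the globin gate last.

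The share of cells with at least 1 GATA3 UMI was 67.6 and 72.1% in the neuron gate, 55.8 and 56.3% in the SOX2 gate, 43.8 and 43.0% outside the gates, 61.5 and 53.8% in the PAG or PRP gate, 32.1 and 30.9% in the collagen VI gate and 33.3 and 26.3% in the globin gate. The globin cells, 8 of 28 with a GATA3 UMI, were taken as a guide to stray RNA, which was not tested. Their median depth was 27366 and 26933 UMIs, against 6532 and 7053.5 in the neuron gate and 2615 and 2654.5 outside the gates. With each cell thinned to 2000 UMIs, which left out 605 shallower cells, the shares were 43.3 and 47.8% in the neuron gate, 38.6 and 35.9% in the SOX2 gate, 39.5 and 37.0% outside the gates, 20 and 33.3% in the PAG or PRP gate (10 and 12 cells), 16.0 and 19.1% in the collagen VI gate and 11.1 and 5.26% in the globin gate. At equal depth the share in SOX2-gate cells and that in cells outside the gates overlapped. The share in globin cells was the lowest in both replicates, but rests on 1 positive cell of 9 and 1 of 19. Its binomial intervals, 0.281 to 48.2% and 0.133 to 26.0%, include the shares in the collagen VI gate. Most positive cells held little GATA3 RNA: 815 of them had 1 UMI and 185 had 10 or more, with a maximum of 41.

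**Figure D1:**
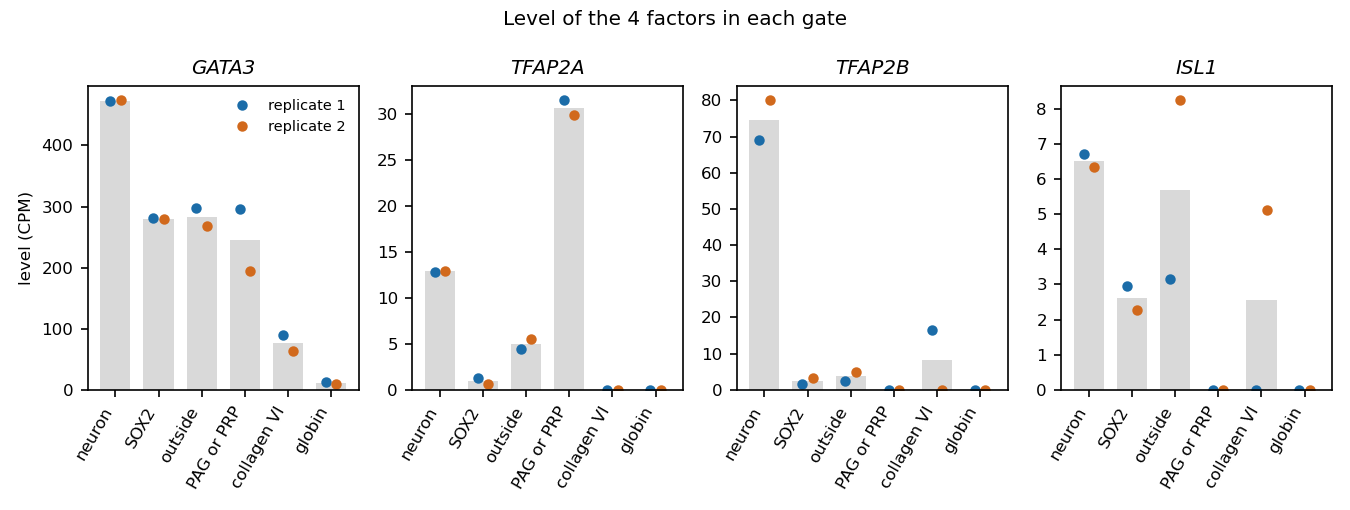
Level of each of the 4 genes in CPM (y axis) by gate (x axis); grey bars are the mean of the 2 replicates and points the replicates. GATA3 is present in all gates and highest in the neuron gate, TFAP2B lies almost wholly in the neuron gate, and TFAP2A is highest in the PAG or PRP gate, where it rests on 5 and 4 UMIs.

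Splitting the cells by SOX2 and by the neuron markers together showed which of these GATA3 went with. Cells with neuron markers and no SOX2 had 517 and 523 CPM of GATA3, and cells with both had 444 and 449 CPM. Cells with SOX2 and no neuron markers had 281 and 279 CPM, and cells with neither had 297 and 268 CPM. Both groups with neuron markers stood above both groups without them in each replicate. Among cells with neuron markers those without SOX2 were higher, and among cells without neuron markers the 2 groups overlapped.

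Along the neuron markers themselves, GATA3 climbed with their UMI number in both replicates, from cells with 0 marker UMIs at 272 and 234 CPM through 432 and 420.3 CPM at 5 to 9 UMIs to 810.2 and 728 CPM at 20 or more. TFAP2B went over the same bins with 1.77 and 4.50, 37.6 and 34.4 and 215 and 245 CPM, and TFAP2A with 3.54 and 2.25, 9.62 and 6.88 and 26.0 and 40.8 CPM. The bins also differ in depth, with a median of 3596 and 3917 UMIs per cell in the lowest and 9301 and 9189.5 in the highest; CPM is scaled to depth, and the part of depth in the pattern was not tested. Over SOX2 UMIs no such climb was seen, with 425 and 412 CPM of GATA3 in cells without SOX2 and 367 and 375 CPM in cells with 4 or more SOX2 UMIs.

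**Figure D2:**
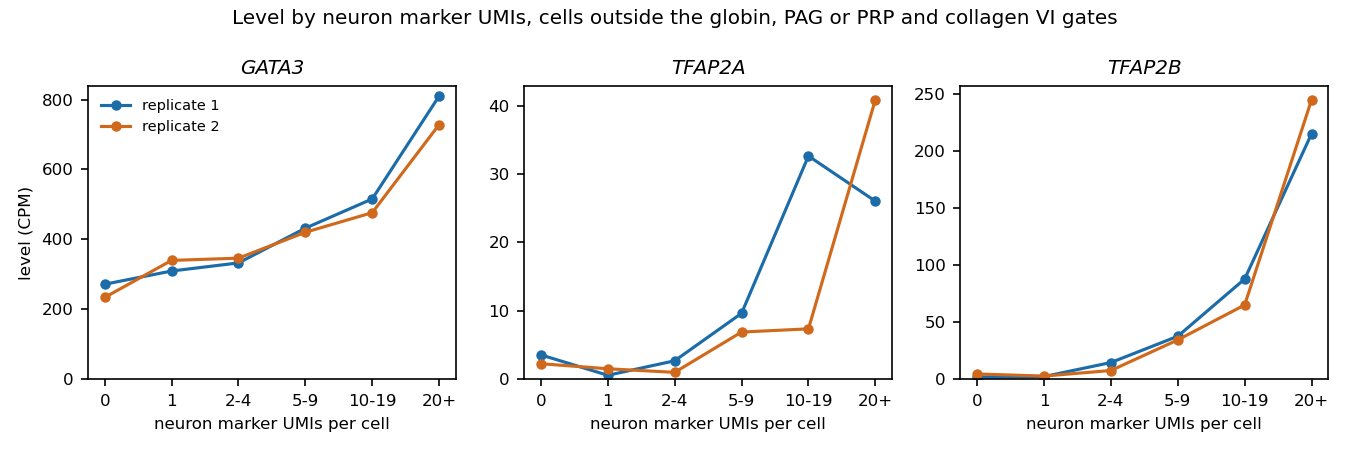
Level of GATA3, TFAP2A and TFAP2B in CPM (y axis) by the number of neuron marker UMIs in a cell (x axis), for cells outside the globin, PAG or PRP and collagen VI gates; points are replicates. All 3 genes are higher at 20 or more marker UMIs than at 0 in both replicates.

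Collagen VI went the opposite way. Among cells outside the globin and PAG or PRP gates, GATA3 stood at 394 and 381 CPM in cells with 0 collagen VI UMIs, 284 and 335 CPM at 1 UMI, 190.0 and 177 CPM at 2 to 9 and 14.5 and 13.3 CPM at 10 or more, the last from 4 and 9 UMIs in 23 and 51 cells. At 10 or more collagen VI UMIs the level was near that of the globin cells. Within the collagen VI gate the GATA3 RNA was uneven: the 29 cells that also met the neuron threshold had 207 CPM and the 28 that also held SOX2 had 228 CPM.

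In trophoblast terms, the cells with no PAG or PRP UMI at all carried 3789 and 5086 GATA3 UMIs, at 369.8 and 348 CPM, and the 12 and 10 cells with 50 or more stood at 298 and 196 CPM. GATA2, the paralog that acts beside GATA3 in trophoblast, had 56.7 and 67.3 CPM in the PAG or PRP gate, 40.2 and 39.1 CPM in the neuron gate, 20.9 and 20.3 CPM outside the gates and 11.8 and 11.0 CPM in the SOX2 gate. GATA2 thus stood highest in the PAG or PRP gate in both replicates, unlike GATA3, although this rests on 9 UMIs in each.

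The table also holds a row for GFP, a fluorescent protein gene, with no label on the cells meant to carry it. Among cells outside the globin, PAG or PRP and collagen VI gates, those with a GFP UMI had GATA3 at 403 and 388 CPM, and those without at 305 and 303 CPM, at a median of 5642 and 6624 and 2873 and 2758 UMIs per cell. Cells rich in ribosomal protein RNA were also compared: in the neuron gate GATA3 had 501 and 508 CPM at 10% or more ribosomal protein UMIs and 445 and 414 CPM below, while in the SOX2 gate it had 229 and 228 CPM and 319 and 347 CPM over the same bins. The 2 gates thus went opposite ways in both replicates.

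TFAP2B was almost confined to the neuron gate, with 240 of its 262 positive cells there (91.6%). Its level was 68.9 and 80.0 CPM in the neuron gate, 2.53 and 4.94 CPM outside the gates and 1.64 and 3.31 CPM in the SOX2 gate; no UMI was found in the PAG or PRP or the globin gate. The collagen VI gate held 8 TFAP2B UMIs in 3 cells, all in replicate 1. Among neuron-gate cells TFAP2B was higher without SOX2, at 125 and 141 CPM, than with SOX2, at 33.7 and 49.8 CPM, and the replicates of the 2 groups did not overlap. The share of neuron-gate cells with a TFAP2B UMI was 11.9 and 14.1%, and 8.11 and 8.92% after thinning, against 0 of 28 globin cells.

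TFAP2A was rarer, with 198 UMIs in 110 cells, of which 85 were in the neuron gate and 14 outside the gates. Its level was 31.5 and 29.9 CPM in the PAG or PRP gate, from 5 and 4 UMIs in 4 cells, 12.9 and 13.0 CPM in the neuron gate, 4.42 and 5.49 CPM outside the gates and 1.31 and 0.621 CPM in the SOX2 gate. No TFAP2A UMI was found in the collagen VI or globin gate. The PAG or PRP gate therefore had the highest level but few UMIs, while the neuron gate held most of the cells with TFAP2A.

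ISL1 was the rarest, with 128 UMIs in 74 cells, 39 of them in the neuron gate, 17 in the SOX2 gate and 14 outside the gates. The neuron gate thus held 52.7% of ISL1-positive cells (binomial interval 40.7 to 64.4%), beside 42.0% of all kept cells. In replicate 2 it held 43.2%, beside 41.0%. The ISL1 level was 6.70 and 6.34 CPM in the neuron gate, 3.16 and 8.24 CPM outside the gates, 2.96 and 2.28 CPM in the SOX2 gate and 0 and 5.12 CPM in the collagen VI gate. The values outside the gates overlapped those of the neuron and of the collagen VI gate, while both neuron values lay above those of the SOX2 and collagen VI gates. The highest single value was outside the gates, from 15 UMIs in replicate 2.

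Clusters built without the 4 genes gave a finer map, and are called here by number and leading genes. They rest on the same cells, so the levels in them are descriptions. GATA3 was highest in cluster 7, led by PCDH9, CNTN5, GALNTL6, NRCAM, RBFOX1 (189 cells), at 766 and 943 CPM, and cluster 2, led by LOC508098, COL25A1, EDIL3, CHRM3, LOC104974975 (156 cells), at 813 and 799 CPM. Cluster 6, led by CRABP1, PENK, EBF1, DCC, STMN2 (382 cells), followed at 698 and 619 CPM; clusters 7 and 2 overlapped in range, and both replicates of cluster 6 lay below them. These 3 clusters held 12.1%, 10.7% and 15.9% of all GATA3 UMIs. At the low end, cluster 18, led by PDZRN4, OPCML, NFIA, ADGRV1, DSCAM, had 43.4 and 28.1 CPM although 22.6% of its cells met the neuron gate and 41.0% the SOX2 gate, and the collagen-rich cluster 11 had 14.5 and 17.0 CPM. Meeting the SOX2 or the neuron gate thus did not by itself go with GATA3. After thinning, 51.2 and 75.3% of cluster 7 and 5.48 and 5.38% of cluster 18 had a GATA3 UMI.

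Cluster 7 also held 370 of the 1001 TFAP2B UMIs, at 299 and 259 CPM, and 36 of the 128 ISL1 UMIs, but 1 TFAP2A UMI. Genes of autonomic and noradrenergic neurons were high in it: HAND2, a factor of sympathetic neurons in mouse, stood at 658 and 634 CPM, and the noradrenaline enzyme genes DBH and TH at 229 and 221 CPM and 166 and 174 CPM. SLC5A7, the choline transporter of cholinergic neurons, was at 228 and 239 CPM. SOX10, a defining factor of neural crest and its glia, had 1 and 0 UMIs in the whole neuron gate. These genes were looked up with the results known and took part in the clustering.

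Cluster 6 held 147 of the 198 TFAP2A UMIs (74.2%), at 60.5 and 67.2 CPM, and 49.6% of the TFAP2B UMIs, at 164 and 256 CPM. Its GATA2 level was 68.9 and 73.3 CPM, and PENK, the enkephalin precursor, was among its leading genes. TFAP2A and TFAP2B thus shared cluster 6, while cluster 7 had TFAP2B nearly without TFAP2A. Cluster 2, like cluster 6, had GATA3 with GATA2, the latter at 226 and 169 CPM, but held 1 UMI each of TFAP2A and TFAP2B.

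Outside the neuron gate, cluster 21, led by WFDC2, ATP6V1G3, C15H11orf34, ATP6V1C2, CA12 (29 cells), combined GATA3 at 491 and 336 CPM, TFAP2A at 71.8 and 69.9 CPM, from 11 UMIs, and GATA2 at 251 and 238 CPM. None of its cells met the PAG or PRP gate, 86.2% lay outside all gates, and KRT7 and EPCAM, genes of simple epithelia, stood at 395 and 629 CPM and 958 and 839 CPM. Its genes include subunits of the proton pump (ATP6V1G3, ATP6V1C2) and a carbonic anhydrase (CA12). Not all were particular to it: C15H11orf34 also leads cluster 16, described below, at 4050 CPM against 1471 CPM in cluster 21. In the PAG or PRP gate EPCAM had 81.9 and 44.8 CPM, KRT7 0 and 29.9 CPM and WFDC2 0 and 7.47 CPM. TP63, the defining factor of stratified surface ectoderm, had 2 and 27 UMIs outside the gates. Of the clusters led by PAG or PRP genes, cluster 16, with PAG2 and PAG8 among its leading genes (16 cells), had GATA3 at 422 and 235 CPM and TFAP2A at 44.0 and 37.5 CPM, and cluster 22, with PRP1 and PRP4 (12 cells), had 3 GATA3 UMIs and no TFAP2A. Cluster 15, with plasma protein genes SERPINA1 and AHSG in the lead, was second in ISL1 UMIs, with 27 of 128, at 19.5 and 21.5 CPM. Clusters 17 and 23 came from 1 replicate by 94.6% and 100% of their cells.

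**Figure D3:**
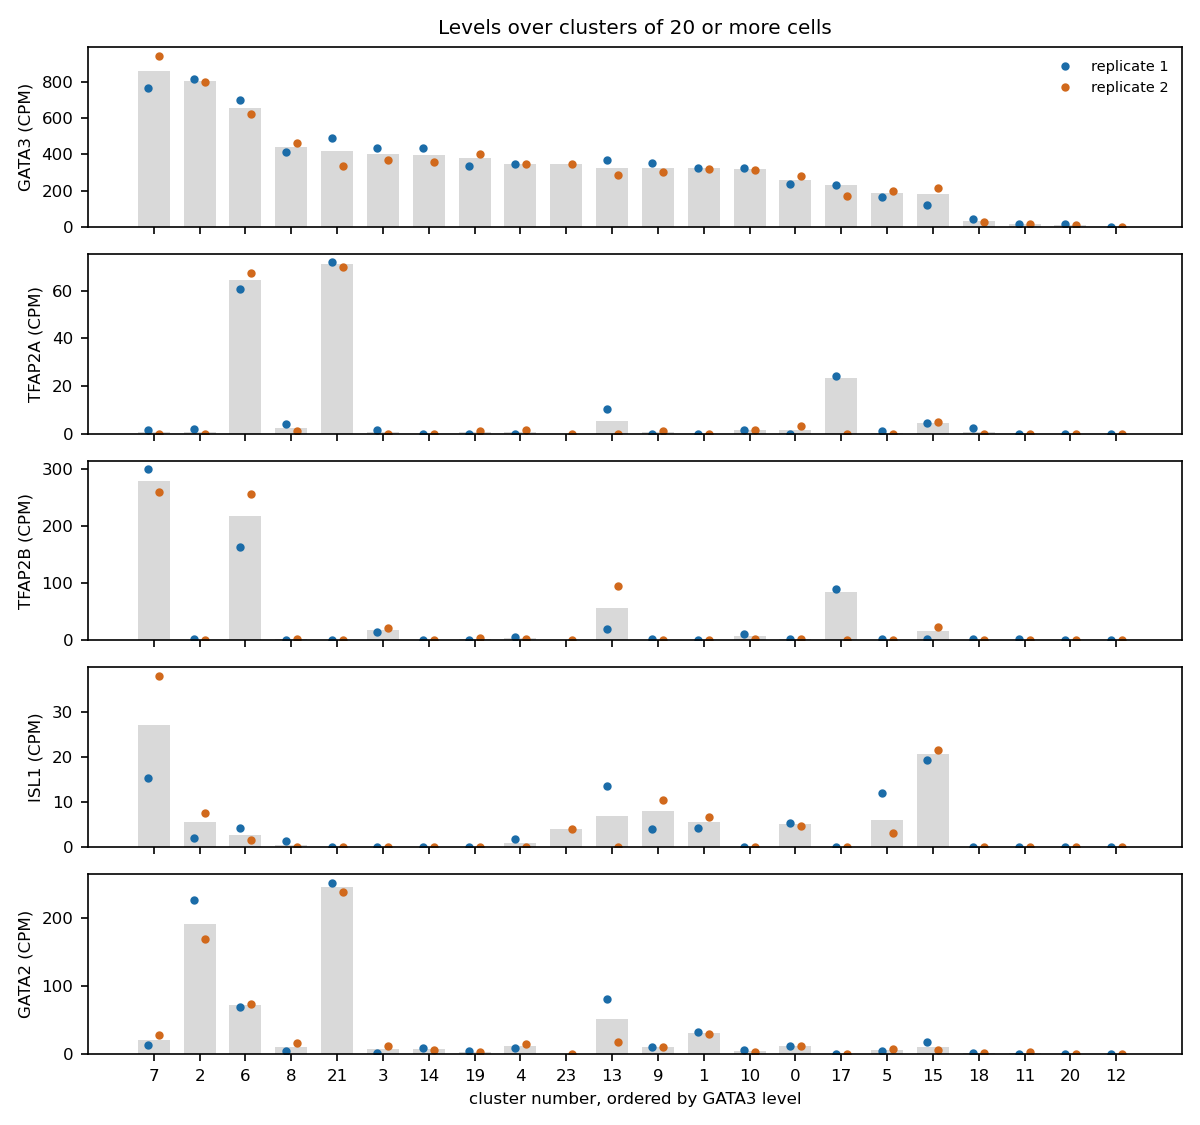
Level of GATA3, TFAP2A, TFAP2B, ISL1 and GATA2 in CPM (y axes) over the 22 clusters of 20 or more cells (x axis), ordered by GATA3; grey bars are both replicates summed and points the replicates. Clusters 7, 2 and 6 lead for GATA3, clusters 21 and 6 for TFAP2A, clusters 7 and 6 for TFAP2B, clusters 7 and 15 for ISL1, and clusters 21 and 2 for GATA2.

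By Pearson's r of log2(CPM + 20) over the 22 clusters, across 11749 genes, the 8 genes most like GATA3 were SMARCE1, BTBD3, CADM1, CCP110, EHMT2, DHX30, CCAR2 and HACD3 (r = 0.887 down to 0.827). Those most like TFAP2B were OLFM1, CELSR3, TUBB4A, GNG3, INA, CEND1, CAMK2N2 and NEFL (r = 0.959 down to 0.925); NEFL and INA are neurofilament genes. For TFAP2A they were ITGA9, DLL1, SLC12A9, MMP15, DLL4, ENPP5, ZNF653 and SLC35F4 (r = 0.919 down to 0.741), with the Notch ligands DLL1 and DLL4 among them, and for ISL1 they were PSD, ASS1, HS3ST2, TBX2, PHOX2A, HAND2, SV2C and THY1 (r = 0.756 down to 0.713), which include the autonomic neuron factors PHOX2A and HAND2. None of the 4 genes, nor GATA2, was among the 8 most like another of them. GATA3 had r = 0.508 with GATA2, 0.381 with TFAP2B, 0.336 with ISL1 and 0.264 with TFAP2A, while TFAP2A and TFAP2B had 0.426 with each other and TFAP2A and ISL1 -0.132. The clusters share 2 libraries and differ in depth, so these values describe likeness only, and the lists depended on the clustering and on the replicate.

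Co-detection was counted in single cells. Of the 85 TFAP2A-positive neuron-gate cells, 36 also had TFAP2B, 33.3 and 52.5% in replicates 1 and 2, against 10.7 and 12.5% of the TFAP2A-negative cells; the median depth was 5619 and 8865.5 UMIs in TFAP2A-positive and 6617.5 and 6995 UMIs in TFAP2A-negative cells. Thinned to 2000 UMIs, 11 of 44 TFAP2A-positive cells had TFAP2B, 25.0%, against 8.12% of the negative cells. TFAP2B was thus in a larger share of the cells with TFAP2A in both replicates, and in the thinned cells of both replicates combined. For GATA3 the shares differed less: it was in 68.9 and 80.0% of TFAP2A-positive and 67.5 and 71.7% of TFAP2A-negative cells, and in 71.0 and 74.3% of TFAP2B-positive and 67.1 and 71.7% of TFAP2B-negative cells. Of 1831 neuron-gate cells, 1043 had GATA3 alone of the 4 genes, 144 GATA3 with TFAP2B, 35 GATA3 with TFAP2A, 27 all 3, 28 GATA3 with ISL1 and 466 none.

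GATA2 tracked GATA3 within cells. It was in 16.4 and 15.1% of GATA3-positive and 3.68 and 3.61% of GATA3-negative neuron-gate cells, and thinned in 10.1 and 8.89% and 3.08 and 2.44%. In the neuron gate its level went with the number of GATA3 UMIs in a cell, from 8.90 and 8.41 CPM at 0 through 64.4 and 60.3 CPM at 5 to 9 UMIs to 127 and 128 CPM at 10 or more. The noradrenaline enzyme gene DBH was in 56 of 240 TFAP2B-positive cells (23.3%), against 2.26% of TFAP2B-negative cells, and thinned in 18.8% and 1.25%. It was in 0 of 85 TFAP2A-positive cells, which allows a share of up to 3.53% of cells with a DBH UMI and does not limit the share of cells that express the gene. GATA3 was in 33 of 39 ISL1-positive neuron-gate cells (84.6%), against 69.7% of ISL1-negative cells, but after thinning in 5 of 12 ISL1-positive cells (41.7%), against 45.8% of ISL1-negative cells, so the direction turned at equal depth; TFAP2B was in 4 of 39. Outside the gates TFAP2A had 14 positive cells, of which 9 had GATA3, 9 WFDC2, 7 GATA2, 7 EPCAM and 6 KRT7.

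**Figure D4:**
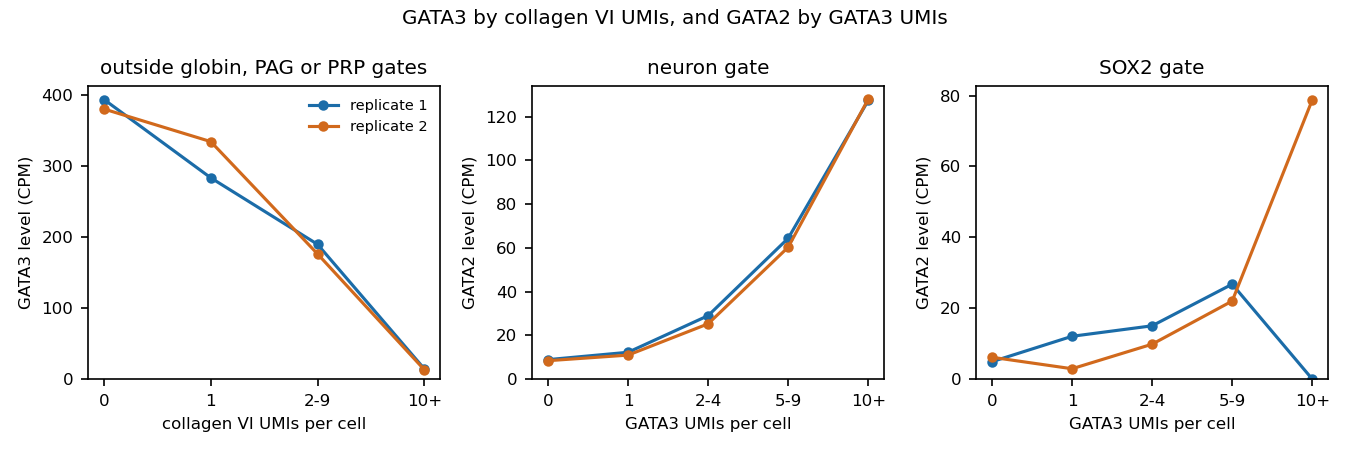
Left, GATA3 level in CPM by collagen VI UMIs per cell; right, GATA2 level in CPM by GATA3 UMIs per cell in the neuron and SOX2 gates; points are replicates. GATA3 falls to 14.5 and 13.3 CPM at 10 or more collagen VI UMIs, and GATA2 reaches 127 and 128 CPM in neuron-gate cells with 10 or more GATA3 UMIs.

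The rest of the transcriptome was then compared between cells with and without each gene. In the neuron gate, GATA3-positive cells had more RNA of the opioid precursor PENK, of GATA2 and of the choline transporter SLC5A7, and less of the inhibitory gene GAD2 and of PDZRN4, OPCML and DSCAM, which are among the leading genes of cluster 18. The UMIs of 567 and 715 GATA3-positive and 272 and 277 GATA3-negative cells were summed per replicate and fitted with edgeR's quasi-likelihood test over 12284 genes, with Benjamini-Hochberg adjustment at 0.05. Of these, 541 genes (4.4%) were higher and 417 (3.39%) lower. PENK, the enkephalin precursor, stood at 178 and 118 CPM in GATA3-positive cells and 2.74 and 2.40 CPM in GATA3-negative cells, a log2 fold change of 5.88 ± 0.24 (SE; edgeR adjusted p = 1.43e-16). It was carried by few cells, 60 of 1282 GATA3-positive cells (4.68%) and 1.28% of GATA3-negative cells. GATA2, the paralog, stood at 51.1 and 48.5 CPM in GATA3-positive cells and 8.90 and 8.41 CPM in GATA3-negative cells, a log2 fold change of 2.59 ± 0.23 (SE; edgeR adjusted p = 8.94e-09). SLC5A7, which loads choline into cholinergic neurons, stood at 30.9 and 29.2 CPM in GATA3-positive cells and 13.0 and 7.81 CPM in GATA3-negative cells, a log2 fold change of 1.62 ± 0.26 (SE; edgeR adjusted p = 5.49e-05). DLL3, a Notch pathway ligand of newborn neurons, PCDH15, a cadherin of hair cells, and DIRAS3, a RAS-like GTPase, were also higher, at log2 1.70, 1.56 and 1.55.

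Lower in GATA3-positive neuron-gate cells was GAD2, the enzyme that makes the inhibitory transmitter GABA, at 10.2 and 7.54 CPM against 34.9 and 33.0 CPM in GATA3-negative cells (log2 -1.88 ± 0.23; edgeR adjusted p = 2.04e-06). PDZRN4, which leads cluster 18, stood at 61.5 and 45.6 CPM against 223 and 196 CPM (log2 -1.91 ± 0.11; edgeR adjusted p = 8.69e-13). The adhesion genes OPCML and DSCAM had log2 -1.64 and -1.40. PENK, GATA2, SLC5A7, GAD2, PDZRN4, OPCML and DSCAM passed in each edgeR setting in which they were tested. DESeq2, the alternative to edgeR, gave little check on these calls. Of the genes picked by rule, 46 had no adjusted p in it, 2 lost their call and 1 kept it. GATA3-positive cells were deeper, with a median of 7396 and 7690 against 4666 and 5386 UMIs, and had more ribosomal protein RNA, 6.08 and 12% against 2.93 and 4.11% of UMIs. With the cells thinned to 2000 UMIs before the split, which leaves cells that had lost their GATA3 UMI among the negative ones, 71 genes passed the test and with no replicate block 93. Of the genes picked by rule 12 kept their call in thinned cells, 27 lost it and 5 changed sign.

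Of the gene lists, motor neuron genes had 2 of 8 tested genes higher and 1 lower, with a median log2 fold change of -0.01, beside 0.00 over all genes; the higher ones were SLC5A7 and PHOX2A. Neural progenitor genes had 4 of 13 tested genes higher and 0 lower, with a median log2 fold change of 0.29: VIM, PAX6, SOX1 and ZIC5 were higher. V2 interneuron genes, the list that holds GATA3's best known spinal partners in mouse, had 2 of 7 tested genes higher and 2 lower, with a median log2 fold change of -0.57, with GATA2 among the higher and GAD2 and SLC32A1 lower; TAL1, PTF1A and TLX3 had at most 4 UMIs in either replicate of the gate. Surface ectoderm genes had 1 of 5 tested genes higher and 2 lower, with a median log2 fold change of -0.77, and neural crest genes had 1 of 9 tested genes higher and 1 lower, with a median log2 fold change of -0.15. VIM and KRT19 turned to the opposite sign in thinned cells.

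In the SOX2 gate, a comparison added after the cells per gate had been counted, GATA3 went with PAX6 and against SHH. Over 11342 genes 392 (3.46%) were higher and 621 (5.48%) lower in the 307 and 427 GATA3-positive than in the 243 and 332 GATA3-negative cells. PAX6, a factor of neural progenitors, stood at 174 and 129 CPM in GATA3-positive cells and 77.7 and 54.4 CPM in GATA3-negative cells, a log2 fold change of 1.13 ± 0.12 (SE; edgeR adjusted p = 4.65e-05). KIF26B, a kinesin-like protein, stood at 156 and 131 CPM in GATA3-positive cells and 50.7 and 41.1 CPM in GATA3-negative cells, a log2 fold change of 1.58 ± 0.13 (SE; edgeR adjusted p = 5.19e-06). SHH, the ventral signal of the neural tube, stood at 47.8 and 56.6 CPM in GATA3-positive cells and 142 and 154 CPM in GATA3-negative cells, a log2 fold change of -1.57 ± 0.12 (SE; edgeR adjusted p = 3.35e-06). RGS6, OPCML, TWIST1 and ALCAM were lower as well, at log2 -4.06, -2.44, -1.81 and -1.08. These 7 genes passed in each edgeR setting in which they were tested, while DCN, which had the largest log2 fold change of the higher genes picked by rule (called, with a mean of 20 CPM or more), at 2.21, had -0.41 in thinned cells. With DESeq2, 26 of the genes picked by rule kept their call, 10 lost it and 6 had no adjusted p. GATA3-positive cells had a median of 5572 and 6513 and GATA3-negative cells 4057 and 5198 UMIs, and 237 genes passed in thinned cells.

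Among the lists in the SOX2 gate, neural progenitor genes had 3 of 12 tested genes higher and 3 lower, with a median log2 fold change of 0.04, beside -0.00 over all genes; PAX6, SOX1 and ZIC2 were higher and VIM, RFX4 and FABP7 lower. For the bone morphogenetic protein (BMP) pathway 2 of 15 tested genes were higher and 1 lower, with a median log2 fold change of 0.10, with SMAD6 and BMPR1A higher and ID4 lower. Of the paralogs, GATA2 was higher, at log2 1.33 ± 0.36 (edgeR adjusted p = 0.0336), and this call was lost without the replicate block. No trophoblast product gene had enough UMIs to enter any of the 6 fits.

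Outside the gates, the summed GATA3-positive cells had more RNA of the epithelial genes KRT7, EPCAM and WFDC2 and less of the heart muscle gene TNNT2 and of the plasma protein genes APOA1, RBP4 and TTR. The epithelial genes were concentrated in the 29 cells of cluster 21. There EPCAM had 903 and WFDC2 5444 CPM over both replicates summed. Over all cells outside the gates they had 50.6 and 47.8 CPM and 222 and 289 CPM. KRT7 was high in that cluster too, against 19.6 and 24.7 CPM outside the gates. Cluster 21 held 65 GATA3 UMIs, against 958 in all cells outside the gates. How far the differences rest on its cells was not tested. Of 10024 genes, 106 (1.06%) were higher and 152 (1.52%) lower in 208 and 232 GATA3-positive than in 267 and 308 GATA3-negative cells. KRT7, a keratin of simple epithelia, stood at 34.1 and 45.5 CPM in GATA3-positive cells and 1.42 and 3.34 CPM in GATA3-negative cells, a log2 fold change of 3.93 ± 0.52 (SE; edgeR adjusted p = 3.44e-06). EPCAM, an epithelial adhesion protein, stood at 79.5 and 81.3 CPM in GATA3-positive cells and 14.2 and 13.4 CPM in GATA3-negative cells, a log2 fold change of 2.52 ± 0.29 (SE; edgeR adjusted p = 3.03e-07). WFDC2, a secreted protein of epithelia, stood at 320.5 and 456 CPM in GATA3-positive cells and 98.3 and 117 CPM in GATA3-negative cells, a log2 fold change of 1.83 ± 0.14 (SE; edgeR adjusted p = 8.26e-11). KRT7 passed in every edgeR setting that could test it. With DESeq2, 11 of the genes picked by rule kept their call, 20 lost it and 2 had no adjusted p. In thinned cells EPCAM had log2 0.01, and WFDC2 turned to -1.29 (edgeR adjusted p = 1.24e-04). C15H11orf34, ATP6V1C2 and CA12, which also lead cluster 21, were higher by log2 3.26, 2.47 and 1.97 and likewise turned below 0 in thinned cells. The higher level of these 5 genes was thus not seen in thinned cells. The arms differed in depth, with a median of 3751 and 3327.5 UMIs in GATA3-positive and 1887 and 2109 UMIs in GATA3-negative cells.

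Several genes were not seen in any GATA3-positive cell outside the gates. The troponin gene TNNT2 of heart muscle had 0 UMIs in GATA3-positive and 77 in GATA3-negative cells, at least 28.9-fold lower against a floor of 3 counts over the group; the interferon-stimulated gene ISG15 had 0 and 157 UMIs (at least 58.9-fold lower), and the trefoil peptide gene TFF2 0 and 107 (at least 40.2-fold lower). These folds take each UMI as independent, and the number of GATA3-negative cells that held the UMIs was not counted. A decrease per cell cannot be read from them. For lateral plate and cardiac genes 0 of 6 tested genes were higher and 3 lower, with a median log2 fold change of -1.70, beside -0.00 over all genes. The lower genes were TNNT2, FGF10 and GATA6. For yolk sac endoderm genes 0 of 3 tested genes were higher and 3 lower, with a median log2 fold change of -1.54, with APOA1, RBP4 and TTR lower. For surface ectoderm genes 1 of 6 tested genes were higher and 0 lower, with a median log2 fold change of 0.85, and for trophoblast factors 0 of 7 tested genes were higher and 0 lower, with a median log2 fold change of 0.05. Of the ectoderm and trophoblast lists, then, EPCAM and KRT7 were the genes that passed. The median of all 7 trophoblast factors tested lay near that of all genes.

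Of the 6 comparisons, that of TFAP2B in the neuron gate had the most genes past the test. TFAP2B-positive cells had more RNA of the noradrenergic genes DBH, TH, PHOX2A and HAND2, of the neurofilament genes NEFL and NEFM and of the Notch ligand genes DLL1 and DLL3, and less of 10 genes of the BMP list and 4 of the WNT and fibroblast growth factor list. Of 12191 genes, 1538 (12.6%) were higher and 1460 (12%) lower in 100 and 140 TFAP2B-positive than in 739 and 852 TFAP2B-negative cells, at a median of 5834 and 7792.5 and 6564 and 7020.5 UMIs. DBH, which turns dopamine into noradrenaline, stood at 169 and 111 CPM in TFAP2B-positive cells and 7.39 and 6.61 CPM in TFAP2B-negative cells, a log2 fold change of 4.40 ± 0.21 (SE; edgeR adjusted p = 6.50e-10). TH, the first enzyme of catecholamine synthesis, stood at 95.3 and 66.4 CPM in TFAP2B-positive cells and 8.78 and 9.59 CPM in TFAP2B-negative cells, a log2 fold change of 3.21 ± 0.24 (SE; edgeR adjusted p = 1.27e-07). HAND2, a factor of sympathetic neurons in mouse, stood at 281 and 209 CPM in TFAP2B-positive cells and 46.9 and 35.4 CPM in TFAP2B-negative cells, a log2 fold change of 2.69 ± 0.14 (SE; edgeR adjusted p = 1.02e-09). CRABP1, which binds retinoic acid, DLL3 and NEFL had log2 3.27, 3.70 and 3.22, the factor ONECUT1 3.05 and the endothelial tight junction gene CLDN5 3.93. Of the endothelium genes 1 of 2 tested was higher.

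Lower in TFAP2B-positive cells were the matrix gene THBS1, at log2 -3.03, the glutamate transporter SLC1A3 of radial glia, at -2.91, the WNT ligand WNT3A, at -2.53, and the filament genes NES and VIM of progenitors, at -1.17 and -0.95. Of neural progenitor genes 2 of 13 tested genes were higher and 3 lower, with a median log2 fold change of -0.22; DLL1 and PAX6 were higher and VIM, RFX4 and NES lower. BMP signalling and target genes moved one way: 0 of 14 tested genes were higher and 10 lower, with a median log2 fold change of -0.79, beside 0.00 over all genes. They include the receptors BMPR1B and BMPR1A and the targets ID1, ID2, ID3 and ID4, at -0.75, -0.54, -0.77 and -0.81. Of WNT and fibroblast growth factor inducers 0 of 11 tested genes were higher and 4 lower, with a median log2 fold change of -0.79. Of cranial placode and inner ear genes 3 of 7 tested genes were higher and 1 lower, with a median log2 fold change of 1.14, with EYA2, EYA1 and DLX5 higher, at 2.46, 2.26 and 1.45. Of neural crest genes 2 of 8 tested genes were higher and 2 lower, with a median log2 fold change of -0.69. NGFR was among the higher ones, and the lower ones were EDNRB and SNAI2. In thinned cells 833 genes passed the test, and of the genes picked by rule 40 kept their call, 14 lost it and 1 changed sign.

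TFAP2A-positive cells of the neuron gate had more RNA of the factors EBF2, ONECUT2 and UNCX and of CRABP1, and held no UMI of HAND2, which was higher in TFAP2B-positive cells. This comparison too was added after the cells had been counted; of 12195 genes 233 (1.91%) were higher and 147 (1.21%) lower in 45 and 40 TFAP2A-positive than in 794 and 952 TFAP2A-negative cells, at a median of 5619 and 8865.5 and 6617.5 and 6995 UMIs. EBF2, a factor of early neurons, stood at 237 and 312 CPM in TFAP2A-positive cells and 24.5 and 32.9 CPM in TFAP2A-negative cells, a log2 fold change of 3.34 ± 0.23 (SE; edgeR adjusted p = 2.85e-04). ONECUT2, a cut homeodomain factor of early neurons, stood at 378 and 618 CPM in TFAP2A-positive cells and 61.2 and 58.8 CPM in TFAP2A-negative cells, a log2 fold change of 3.12 ± 0.25 (SE; edgeR adjusted p = 3.25e-04). UNCX, a homeodomain factor, stood at 70.6 and 93.9 CPM in TFAP2A-positive cells and 7.80 and 9.01 CPM in TFAP2A-negative cells, a log2 fold change of 3.37 ± 0.38 (SE; edgeR adjusted p = 0.00176). CRABP1, which binds retinoic acid, stood at 12119 and 29124 CPM in TFAP2A-positive cells and 1514 and 3083 CPM in TFAP2A-negative cells, a log2 fold change of 3.21 ± 0.34 (SE; edgeR adjusted p = 0.00127). EYA2 was higher by log2 2.58 and PAX2, a factor of inhibitory interneurons and the ear, by 3.66. The axon guidance receptor ROBO3 and the integrin ITGA9 had 3.58 and 3.20. HAND2 had 0 UMIs in TFAP2A-positive and 855 in TFAP2A-negative cells, at least 14.4-fold lower, and SHH 0 and 421, at least 7.08-fold lower. These 2 folds take each UMI as independent. HAND2 stood at 646 CPM in cluster 7 and SHH, a leading gene of cluster 5, at 200 CPM there, and each of these clusters held 1 TFAP2A UMI. A decrease per cell thus cannot be read from the folds. For V2 interneuron genes 2 of 7 tested genes were higher and 0 lower, with a median log2 fold change of 1.33, and for BMP genes 0 of 14 tested genes were higher and 2 lower, with a median log2 fold change of -0.87, beside -0.04 over all genes. In thinned cells 77 genes passed, 24 and 20 positive cells being left. Of the genes picked by rule 26 then lost their call, ROBO3, ITGA9, HAND2 and SHH among them, and 10 kept it, with EBF2, ONECUT2, UNCX, CRABP1 and EYA2 among these; PAX2 could not be tested.

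The 4 genes in one another's comparisons are given without a test. TFAP2B stood at 162 and 397 CPM in TFAP2A-positive and 64.0 and 64.5 CPM in TFAP2A-negative cells, and TFAP2A at 43.9 and 50.3 CPM in TFAP2B-positive and 8.78 and 6.45 CPM in TFAP2B-negative cells. GATA3 stood at 516 and 571 CPM in TFAP2B-positive and 466 and 456 CPM in TFAP2B-negative cells, and at 582 and 466 CPM in TFAP2A-positive and 466 and 474 CPM in TFAP2A-negative cells. The AP-2 genes thus were each higher, in both replicates, where the other was detected, while GATA3 overlapped between TFAP2A-positive and TFAP2A-negative cells.

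**Figure D5:**
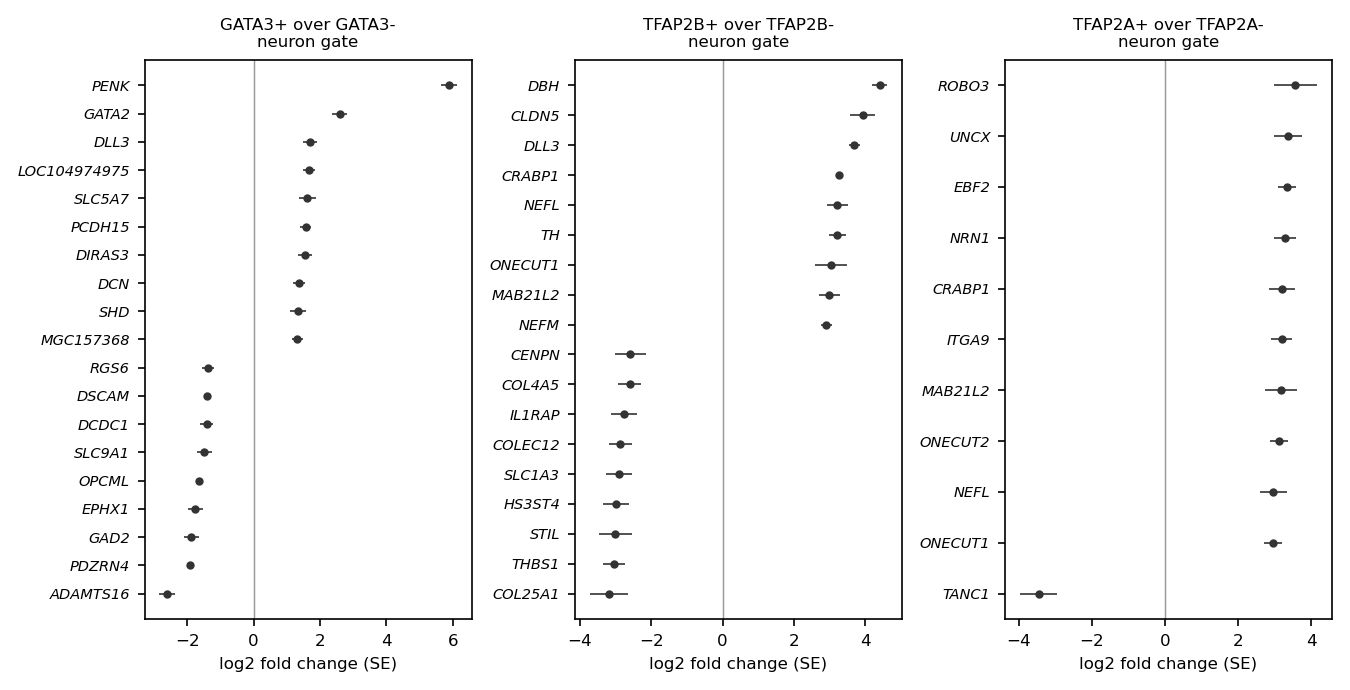
Log2 fold change with its standard error (x axis) of the genes with the largest and smallest changes between positive and negative neuron-gate cells, for GATA3, TFAP2B and TFAP2A; genes with 3 or fewer UMIs in a group and a few others are not shown. PENK leads for GATA3 at 5.88 and DBH for TFAP2B at 4.40.

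ISL1-positive cells of the neuron gate, 20 and 19 against 819 and 973 ISL1-negative cells, had more RNA of PRPH, CHRM2, CNTN1 and SLC5A7 and less of PAX3. Of 12165 genes, 103 (0.847%) were higher and 40 (0.329%) lower, at a median of 8830 and 9216 and 6495 and 7009 UMIs. PRPH, the filament peripherin of neurons that leave the central nervous system, stood at 168 and 155 CPM in ISL1-positive cells and 14.5 and 16.2 CPM in ISL1-negative cells, a log2 fold change of 3.49 ± 0.31 (SE; edgeR adjusted p = 5.06e-04). PRPH was not particular to neuron-gate cells, with 229 and 260 CPM in the collagen VI gate and 19.2 and 19.6 CPM in the whole neuron gate. CHRM2, a muscarinic acetylcholine receptor, stood at 34.8 and 219 CPM in ISL1-positive cells and 5.64 and 8.80 CPM in ISL1-negative cells, a log2 fold change of 4.08 ± 0.54 (SE; edgeR adjusted p = 0.0062). In replicate 1 alone its log2 fold change was 2.43. CNTN1, an axon adhesion protein, stood at 348 and 294 CPM in ISL1-positive cells and 49.1 and 40.7 CPM in ISL1-negative cells, a log2 fold change of 2.93 ± 0.22 (SE; edgeR adjusted p = 2.25e-04). SLC5A7, the choline transporter, stood at 128 and 109 CPM in ISL1-positive cells and 23.1 and 22.1 CPM in ISL1-negative cells, a log2 fold change of 2.48 ± 0.32 (SE; edgeR adjusted p = 0.00528). The secretory granule gene CHGB had log2 4.83 and NXPH1, which binds neurexins, 3.45. Lower was PAX3, a dorsal neural tube and crest factor, with 2 against 1652 UMIs (23-fold lower, counting interval 6.36 to 190.1). The WNT agonist gene RSPO3 was lower as well, at log2 -3.51. PENK was also called lower, with 2 against 1396 UMIs (19.4-fold lower, 5.37 to 161). These intervals take each UMI as independent. PENK was carried by few neuron-gate cells, so few of 39 ISL1-positive cells could hold it. A decrease of PENK cannot be read from this count. Of the genes picked by rule, 18 lost their call in cells with 10% or more ribosomal protein UMIs, CHRM2, SLC5A7, NXPH1, PAX3 and PENK among them, and 4 kept it, PRPH, CNTN1 and RSPO3 among them. With strict gates 11 lost it, PAX3 among them, and 12 kept it. GATA3, given without a test, stood at 795 and 1157 CPM in ISL1-positive and 462 and 456 CPM in ISL1-negative cells. MNX1, a defining motor neuron factor in mouse, had 3 and 2 UMIs in the whole neuron gate. Of the lists, BMP genes had 0 of 14 tested genes higher and 1 lower, with a median log2 fold change of -0.32, beside -0.08 over all genes, and motor neuron genes had 1 of 8 tested genes higher and 0 lower, with a median log2 fold change of 0.88. Mesenchyme genes had 1 of 10 tested genes higher, DCN, and 0 lower, with a median log2 fold change of 0.32.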

How the data were processed

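The authors deposited unnormalized UMI counts of every gene in every cell, for 2 replicates of 1 group. Per the submitters' processing notes, Cell Ranger, R 4.1.2, Seurat 4.3.0 and the bosTau9 build were used; these notes give neither the annotation nor the Cell Ranger version. The 4 genes, the gates and the 20 gene lists were chosen with earlier results of these data known. Symbols are those of the authors' table, of which 17337 were found in a RefSeq gene table used for names. Kept cells (500 or more genes) had 11162815 and 15402255 UMIs in replicates 1 and 2, and 6 barcodes occurred in both libraries. Globin gates used 10 rows and PAG or PRP gates 25; the row PAG1 was left out because the RefSeq table places it away from the other PAG genes. No doublet caller was run; cells that met more than 1 gate, or lay above the 95th percentile of UMIs, were left out as alternatives.

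Cells were clustered with scanpy 1.11.5 and igraph 0.11.9 (Python 3.11.15): counts scaled to 10000, log-transformed, 2000 variable genes without the 4 genes, 30 principal components, 15 neighbours, Leiden resolution 1. Thinning to 2000 UMIs was seeded. Intervals of shares are exact binomial (95%), and limits for a count of 0 are 3 counts; both cover counting error only.

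For each comparison, counts of positive cells (1 or more UMI of the gene) and negative cells were summed per replicate and fitted with edgeR 4.0.16 (R 4.3.3): TMM, filterByExpr, robust quasi-likelihood, replicate as a block, Benjamini-Hochberg over all genes tested at 0.05. Both sums of a replicate come from the same suspension, which is where the pairing comes from. Each fit had 1 residual degree of freedom, so tests rest mainly on the spread pooled over genes (prior degrees of freedom 9.40 to 31.5). At least 20 cells per sum were required, so the planned fits of TFAP2A outside the gates (6 and 8 positive cells) and of ISL1 in the neuron gate (20 and 19) could not be made; ISL1 was fitted with a minimum of 10 cells. DESeq2 1.42.0 was an alternative. On simulated counts for the GATA3 comparison in the neuron gate, with 12289 genes tested, 99.1% of genes changed by 2 on the log2 scale and 51.1% of those changed by 1 were recovered. For ISL1, with 12117 genes tested, the shares were 48.2% and 2.27%. The simulation used a single dispersion for all genes and changed only genes with many counts. Recovery of genes with low counts was thus not shown. Among the genes called in the simulation for GATA3 in the SOX2 gate, 8.25% were false.

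Genes were named by rule: per comparison the 10 with the largest and the 10 with the smallest log2 fold change among those called, at a mean of 20 CPM or more and with 1 sign in both replicates; per list up to 4 called genes of smallest p; per gene the 8 of highest likeness. The text names some of these and a few marker genes looked up with their values known; some genes that the rule names are not reported here. No column of another sample was present.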

Additional observations from a re-analysis of the deposited data

How the results depend on the processing

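The counts of genes past the test moved with the settings; the cause was not tested unless stated. The counts with all cells were 258 for GATA3 outside the gates, 958 for GATA3 in the neuron gate, 1013 for GATA3 in the SOX2 gate, 2998 for TFAP2B, 380 for TFAP2A and 143 for ISL1 in the neuron gate. Thinning to 2000 UMIs, which drops reads and cells, gave 147, 71, 237, 833 and 77 in that order, and ISL1 could not be fitted. DESeq2 gave 32, 109, 199, 812 and, for ISL1, 75; genes without an adjusted p in DESeq2 were not counted as lost. With no filter on low counts 389 genes were called for GATA3 outside the gates, 823 for TFAP2A and 548 for ISL1. With 2 or more UMIs for a positive cell 1516 were called for GATA3 in the neuron gate. Strict gates gave 160 for GATA3 outside the gates, 1716 in the SOX2 gate, 919 for TFAP2B and 43 for ISL1. Cells with 10% or more ribosomal protein UMIs gave 43 for GATA3 outside the gates, 267 in the neuron gate, 535 in the SOX2 gate, 1848 for TFAP2B and 14 for ISL1. Leaving out clusters of 1 replicate, an alternative added after seeing the data, gave 160 for GATA3 outside the gates, 923 for TFAP2A and 236 for ISL1.

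Without the replicate block the fits called 168 genes for GATA3 outside the gates, 93 in the neuron gate, 176 in the SOX2 gate and 445 for ISL1; for TFAP2B and TFAP2A the count stayed within 1.5 times that with the block.

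Some named genes changed sign. In thinned cells outside the gates, GATA3-positive over GATA3-negative cells had log2 -0.34 for C15H11orf34, -0.36 for ATP6V1C2, -0.16 for CA12 and -1.29 for WFDC2. In the neuron gate it had -0.19 for KRT19, -0.13 for TNNI1, -0.20 for VIM, -0.067 for SOX2 and -0.27 for WNT3A, in the SOX2 gate -0.41 for DCN, and for TFAP2B -0.42 for NTRK3. Strict gates gave -0.088 for KRT19, 0.46 for SHH and 0.64 for APOA1 with GATA3 in the neuron gate. Cells with 10% or more ribosomal protein UMIs gave 0.70 for KLF5, 0.19 for RUNX1 and -0.079 for VIM with GATA3, and 0.39 for KLF5 with TFAP2B. Without replicate 2, LUM had -0.019 with GATA3 in the neuron gate, and 2.19 without replicate 1. Leaving out a replicate leaves 1 sum per arm and no test.

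The shares of GATA3 UMIs by gate moved as the gates were redrawn. Thinned, they were 58.2% in the neuron gate, 13.7% outside the gates and 1.35% in the collagen VI gate. Loose gates gave 76.0%, 11.1% for SOX2, 6.55% outside and 5.45% for collagen VI, and strict gates 44.0%, 28.0%, 26.8% and 0.243%. Without cells that met more than 1 gate they were 42.1%, 38.5%, 17.1%, 0.798% and, for PAG or PRP, 1.34%. With SOX2 placed first, by construction, the SOX2 gate took 62.7%, the neuron gate 25.4% and collagen VI 0.598%. The PAG or PRP share was 0.124% without the cells above the 95th percentile of UMIs and 1.88% with PAG1 kept, an alternative added after seeing the data; without clusters of 1 replicate collagen VI had 0.926%.

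Of the 8 genes most like GATA3, TFAP2A, TFAP2B and ISL1, Leiden resolution 0.5 shared 4, 3, 3 and 4 and resolution 2 shared 5, 2, 2 and 0. A pseudocount of 5 CPM shared 5 for TFAP2A and 5 for ISL1. Leaving out a replicate shared 3 for GATA3 either way, 2 to 4 for TFAP2A, 3 to 4 for TFAP2B and 2 to 5 for ISL1.

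TFAP2A and ISL1 rest on 198 and 128 UMIs, so their levels by gate carry wide counting errors, and a cell without a UMI is not shown to lack the RNA.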
